A study of Mus musculus with 8 samples.

Results

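The genes described here make, convert and break down ceramide and sphingomyelin. They were taken by name as 10 genes, namely Sptlc1, Cers2, Cers5, Cers6, Sgms1, Smpd1, Smpd2, Smpd3, Asah1 and Asah2, out of 14860 genes measured under a single gene symbol. Each of the 10 had 1 transcript cluster, the unit in which the array reports a gene. They were measured in B16F0 cells, a pigmented mouse melanoma line, and in the exosomes that these cells shed, which are small membrane vesicles carrying RNA and protein. Both groups came from cultures kept without serum for 24 h, with 4 samples of cells and 4 of exosomes and 1 whole-transcript exon array per sample. The labels name no transgene, deletion or drug for either group, and they do not state how the vesicles were isolated. Equal masses of cDNA were hybridised, so all levels are relative to the other RNA of the same sample.

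Ceramide is the hub of sphingolipid metabolism. It is built in the endoplasmic reticulum from serine and a fatty acyl group, a route that starts with serine palmitoyltransferase and ends with ceramide synthases and a desaturase. Sphingomyelin synthases then turn it into sphingomyelin, sphingomyelinases release it again, and ceramidases cut it to sphingosine, the precursor of the signalling lipid sphingosine 1-phosphate. In a mouse oligodendroglial cell line, ceramide made by the neutral sphingomyelinase encoded by Smpd3 was found to drive the budding of exosomes into multivesicular bodies. The values below are mRNA signals of these enzymes, not lipid levels or enzyme activities.

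All values are log2 signals as deposited, so a difference of 1 is 2-fold. A gene was taken as above background on an array when it exceeded the 95th percentile of 844 odour, pheromone and taste receptor genes of that array. This threshold was 5.74 ± 0.03 on cell arrays and 6.49 ± 0.06 on exosome arrays (SD, n = 4 each), and the upper quartile of all signals was 8.53 ± 0.06 and 7.13 ± 0.06. The upper range was thus compressed and the background raised on exosome arrays, and the scaling between the groups bears on every direction below. All 9 measured pigment cell markers were above background in both groups, while 0 of 6 leukocyte markers were so in either. Separate cultures are not named for the samples within a group, so p-values measure only the spread among these samples, and that spread may be technical. Precision is limited by the number of arrays.

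Of the 10 genes, 9 exceeded background on all 4 cell arrays, beside 61.7% of all genes, and 7 did so on all 4 exosome arrays, beside 35% of all genes. Smpd3 was above background on no array of either group. Sptlc1 and Asah2 exceeded it on every cell array but on none from exosomes. In the comparison of exosomes with cells, limma called 8 of the 10 lower and 0 higher at an adjusted p below 0.05, beside 52.1% and 14.6% of all genes. Of these 8, the falls of Cers5 and Cers6 turned to higher values under quantile normalization and cyclic loess, and the other 6 kept their direction and call under each scaling. The 6 that fell at least 2-fold were these same 6, beside 37.8% of all genes, and 0 rose that far, beside 2.58%. Cell and exosome values did not overlap for 9 of the 10, beside 65.7% of all genes. Among the 9169 genes that exceeded background in cells, as 9 of the 10 did, 79.9% were called lower and 7.29% higher, 60.3% were lower at least 2-fold, and 87.4% did not overlap. The counts of the 10 genes were thus near the shares of genes detected in cells. The median log2 fold change of the 10 was -1.89, beside -0.39 over all genes and -1.30 over those 9169.

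**Figure D1:**
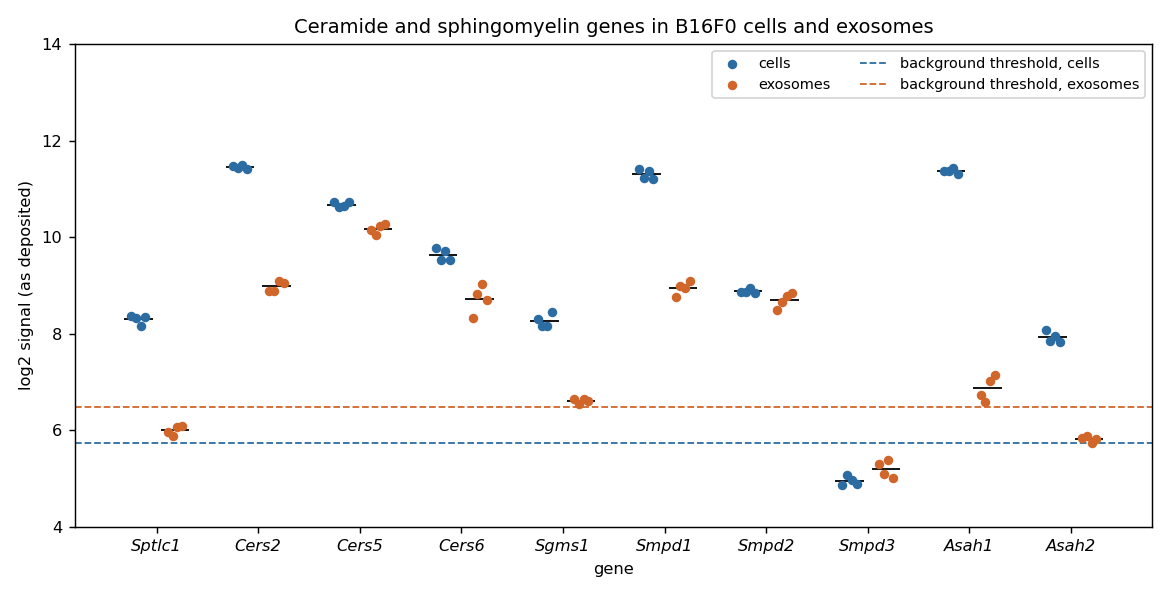
The vertical axis shows the log2 signal as deposited for each of the 10 genes, with a point for each array (4 of cells, 4 of exosomes), a bar at each group mean and dashed lines at the mean background thresholds of 5.74 and 6.49. Smpd3 lies under both lines, Sptlc1 and Asah2 drop under the exosome line, and Asah1 drops to just over that line in exosomes.

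The synthesis of ceramide was represented by Sptlc1 and the ceramide synthases. Sptlc1 encodes a subunit of serine palmitoyltransferase, which condenses serine with palmitoyl-CoA. Its signal was 8.38, 8.32, 8.17 and 8.35 on the 4 cell arrays and 5.97, 5.89, 6.06 and 6.09 on the 4 exosome arrays. Every exosome value lay below every cell value and below the background threshold of its array. Sptlc1 was therefore at least 3.51-fold lower in exosomes as deposited, taking the threshold as the exosome level (group means 8.30 and 6.00, limma adjusted p = 5.92e-08). The log2 fold change of Sptlc1 was -1.31 under quantile normalization and -1.06 under cyclic loess. This bound and those given below thus hold only as deposited.

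Cers2, the ceramide synthase that prefers very long acyl chains, fell further than Cers5 and Cers6. Its signal was 11.48, 11.44, 11.49 and 11.42 in cells and 8.88, 8.88, 9.10 and 9.06 in exosomes, without overlap. The log2 fold change was -2.48 ± 0.08 (SE, n = 4 arrays per group), a 5.56-fold fall with an adjusted p of 4.32e-08 in limma. Cers5, a synthase of ceramides with shorter acyl chains, had 10.72, 10.61, 10.64 and 10.73 in cells and 10.14, 10.04, 10.22 and 10.26 in exosomes. Those ranges lay close together but apart, and the log2 fold change of Cers5 was -0.51 ± 0.08 (limma adjusted p = 0.000365). It became 0.35 under quantile normalization and 0.66 under cyclic loess, so the direction for Cers5 depended on the scaling. Cers6, a synthase with acyl chain preference close to that of Cers5, had 9.78, 9.52, 9.71 and 9.53 in cells and 8.32, 8.81, 9.02 and 8.69 in exosomes. Its exosome values were the most scattered of the 10 genes (SD 0.30), with exosome replicate 1 the lowest. The log2 fold change of Cers6 was -0.93 ± 0.15 (limma adjusted p = 0.00068), and it was 0.26 under quantile normalization, not called, and 0.47 under cyclic loess, called.

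Sequence just before the annotated starts of the ceramide synthase genes is shown as a description. Whether it bears on the changes of these genes between exosomes and cells was not tested. The windows are the 250 bases before a start in RefSeq, build GRCm38.p6, written 5′ to 3′ on the gene's strand, with the first listed start where a gene had several. Capitals mark CACGTG, the E-box core that factors of the Mitf and Tfe family bind, which reads the same on both strands.
Cers2, chr3:95314940-95315189, + strand: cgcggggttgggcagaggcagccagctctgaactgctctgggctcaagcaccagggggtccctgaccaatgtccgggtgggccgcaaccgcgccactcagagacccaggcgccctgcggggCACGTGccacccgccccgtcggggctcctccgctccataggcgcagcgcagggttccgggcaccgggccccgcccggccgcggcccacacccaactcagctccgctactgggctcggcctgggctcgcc
Cers5, chr15:99772516-99772765, - strand: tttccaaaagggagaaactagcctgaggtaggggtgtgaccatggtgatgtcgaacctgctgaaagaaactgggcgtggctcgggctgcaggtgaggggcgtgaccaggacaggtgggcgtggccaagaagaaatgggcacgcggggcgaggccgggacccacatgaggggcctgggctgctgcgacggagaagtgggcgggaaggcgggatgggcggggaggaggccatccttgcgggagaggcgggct
Cers6, chr2:68861191-68861440, + strand: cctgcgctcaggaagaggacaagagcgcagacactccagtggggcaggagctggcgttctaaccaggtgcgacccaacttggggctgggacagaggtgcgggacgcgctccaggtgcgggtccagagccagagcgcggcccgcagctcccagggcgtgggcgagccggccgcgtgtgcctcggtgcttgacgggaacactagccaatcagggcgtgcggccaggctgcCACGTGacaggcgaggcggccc

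The CACGTG core lay 129 bases before the start of Cers2 and 22 bases before that of Cers6, and it was not found in the window of Cers5. The 8 of the 10 genes in the table had 12 windows, of which 3 held the core, 1 each of Cers2, Cers6 and Smpd2, where it lay 194 bases before the start. Among all 32851 windows of this length in the table, 6.02% held it. The second listed start of Cers2 had no match in its window. A match is a description of the letters and not a binding site. The genes with the motif had log2 fold changes of -2.48, -0.93 and -0.19 as deposited, and the measured changes of the other 5 genes ranged from -2.36 to -0.51.

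Sphingomyelin synthesis and breakdown gave unequal changes. Sgms1 encodes the sphingomyelin synthase of the Golgi, which moves phosphocholine from phosphatidylcholine to ceramide. It had 8.31, 8.16, 8.16 and 8.45 in cells and 6.65, 6.54, 6.65 and 6.60 in exosomes. The groups did not overlap, and the log2 fold change was -1.66 ± 0.09, a 3.17-fold fall (limma adjusted p = 3.65e-07). The exosome values of Sgms1 were only 0.06 to 0.19 above the thresholds of their arrays, so its level in exosomes was close to background.

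Smpd1, the acid sphingomyelinase of lysosomes, had 11.41, 11.23, 11.38 and 11.20 in cells and 8.75, 8.99, 8.95 and 9.10 in exosomes. All exosome values were below all cell values, and Smpd1 fell 5.12-fold (log2 fold change -2.36 ± 0.10 SE, limma adjusted p = 1.11e-07). Smpd2, a neutral sphingomyelinase, had 8.86, 8.86, 8.95 and 8.85 in cells and 8.49, 8.66, 8.78 and 8.83 in exosomes. The exosome values were all lower, but the highest of them lay next to the lowest cell value. The change of Smpd2 did not pass the test, at -0.19 ± 0.09 with a 95% interval from -0.39 to 0.01 (limma adjusted p = 0.0982). Rescaling changed this: the log2 fold change of Smpd2 was 1.09 under quantile normalization and 1.25 under cyclic loess, both called higher, and -0.79 after centring on background genes, called lower.

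Smpd3, the neutral sphingomyelinase named above for its role in exosome budding, had 4.87, 5.07, 4.97 and 4.88 in cells and 5.31, 5.10, 5.39 and 5.01 in exosomes. The groups overlapped, and no fold is given because every value was below its background threshold (differences from -0.89 to -0.66 in cells and from -1.41 to -1.17 in exosomes). The difference of 0.25 ± 0.10 did not pass the test (limma adjusted p = 0.0674). Leaving out exosome replicate 4 brought the adjusted p to 0.0286, and centring on background genes turned the difference to -0.34, called lower. The Smpd3 mRNA was thus not detectable over background in these cells or in their exosomes, which does not show that it was absent.

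The ceramidases fell. Asah1 encodes acid ceramidase, the lysosomal enzyme that is abundant in human melanocytes and melanoma. It had 11.38, 11.36, 11.44 and 11.32 in cells and 6.73, 6.59, 7.02 and 7.15 in exosomes, and the groups lay far apart. Asah1 fell 22.6-fold, with a log2 fold change of -4.50 ± 0.13 (SE, 4 arrays a group; adjusted p = 3.36e-08 in limma). It stood at place 7 from the lowest among 14860 genes. Among the 433 genes with a cell signal from 11 to 12, whose median log2 fold change was -1.68, it was the lowest as deposited. Asah1 was between 0.11 and 0.73 above background on the exosome arrays. With the 99th percentile of background genes as the threshold, only 5 of the 10 genes were above background in exosomes, and Asah1 and Sgms1 were not among them. The 22.6-fold fall of Asah1 thus rests on an exosome signal close to background. Asah2, the neutral ceramidase, had 8.08, 7.84, 7.95 and 7.83 in cells and 5.83, 5.88, 5.74 and 5.82 in exosomes. All exosome values were below background, so Asah2 was at least 2.70-fold lower as deposited (group means 7.93 and 5.82, limma adjusted p = 8.87e-08). Its log2 fold change was -1.29 under quantile normalization and -1.03 under cyclic loess.

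Changes differed with the cell level over all genes, so each gene was set beside genes of its own cell level, in bins of 1 log2 unit. Cers2 and Smpd1 changed by -2.48 and -2.36 where the bin median was -1.68, at places 97 and 115 from the lowest of 433 genes. Sgms1, at -1.66, lay next to its bin median of -1.58. Asah2 and Sptlc1 lay below their bin medians of -1.21 and -1.58. Cers5, Cers6 and Smpd2 lay above theirs, by changes of -0.51, -0.93 and -0.19 beside -1.68, -1.75 and -1.58. Smpd2 stood at place 1975 of 2244 from the lowest and Cers5 at place 821 of 994. These places are a description, since genes are not replicates.

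**Figure D2:**
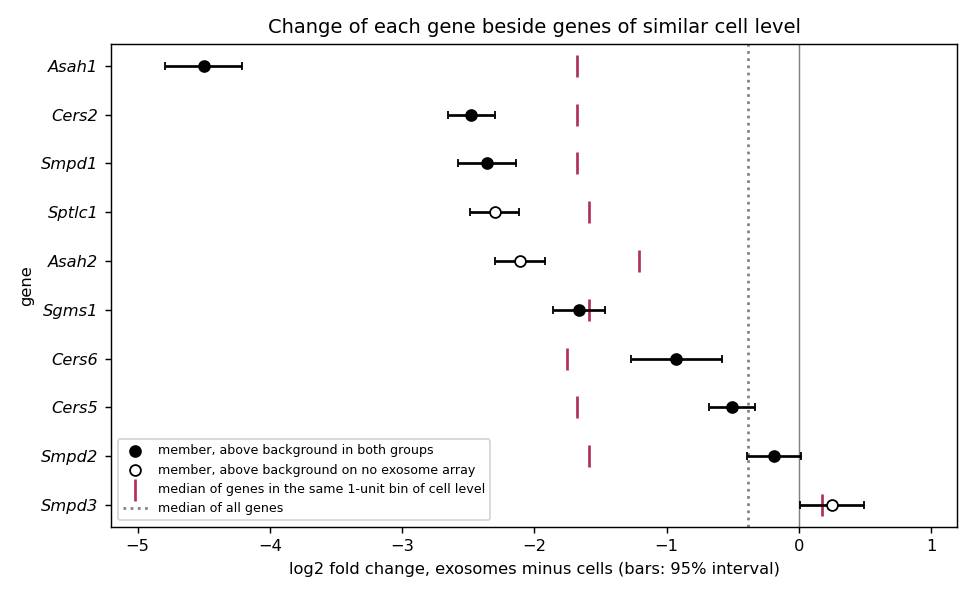
Points show the log2 fold change of each gene, exosomes minus cells as deposited, with 95% intervals from limma (n = 4 arrays per group). Red ticks mark the median of genes in the same 1-unit bin of cell signal and the dotted line the median of all genes at -0.39. Asah1 lies far left of its tick at -1.68, Sgms1 on its tick, and Cers6, Cers5 and Smpd2 right of theirs, and all 3 of these became positive under quantile normalization and cyclic loess.

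The scaling of the arrays set the sign for the genes that changed least. Over the 23332 clusters the median change in log2 signal was -0.20 without rescaling, 0.05 with quantile normalization and 0.03 with cyclic loess. It was -0.80 when each array was centred on its background genes. Among the 10 genes, calls were 8 lower and 0 higher without rescaling, 6 lower and 2 higher with quantile normalization, 6 lower and 3 higher with cyclic loess, and 10 lower with centring. The shares of all genes called lower and higher were 33.4% and 30.1% with quantile normalization, 32.8% and 31% with cyclic loess, and 82.5% and 2.45% with centring. Asah1 ranged from -5.10 to -3.10 over these scalings and Cers2 from -3.07 to -1.26. Smpd1 ranged from -2.95 to -1.13, Sptlc1 from -2.90 to -1.06 and Asah2 from -2.71 to -1.03. Sgms1 ranged from -2.26 to -0.30 and stayed called.

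**Figure D3:**
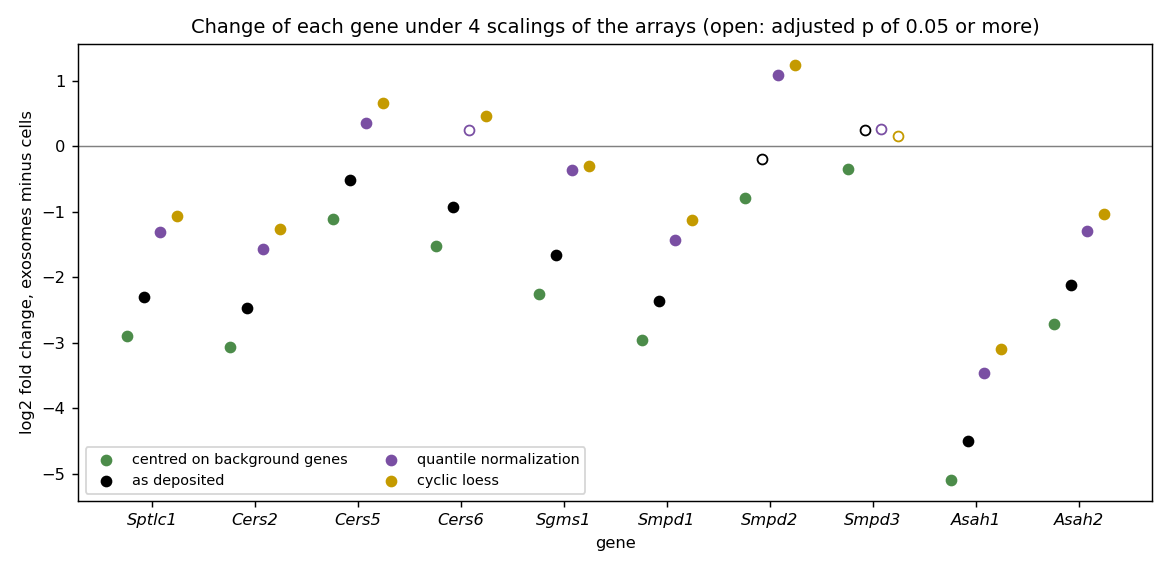
The vertical axis shows the log2 fold change, exosomes minus cells, of each gene under 4 scalings of the arrays, and open points have a limma adjusted p of 0.05 or more. Asah1, Asah2, Cers2, Sgms1, Smpd1 and Sptlc1 lie below 0 under all 4. Cers5, Cers6, Smpd2 and Smpd3 lie on both sides, and Smpd3 was under background on all arrays.

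A difference between 2 genes within an array is not touched by a shift of the whole array, so the changes of the 10 genes were compared in all 45 pairs. A compression of the range can still alter such a difference where the 2 genes differ in level. The test was a two-sided exact permutation test of the within-array difference over the 70 ways to choose 4 of 8 arrays, with p-values adjusted over the 45 pairs. For 41 pairs the within-array differences of cells and exosomes stayed apart, giving the smallest p the design allows (exact p = 0.0286, adjusted 0.0314). The adjusted value is below 0.05 only because so many pairs, which share genes, reached that smallest p. It therefore singles out no pair. The share among pairs of other genes was not computed. Signals of 65.7% of all genes, and 87.4% of those above background in cells, did not overlap between the groups. Of the 21 pairs formed by the 7 genes that exceeded background in both kinds of sample, 20 were called. The 24 pairs that include Sptlc1, Asah2 or Smpd3 hold a signal under background, so their differences are of measured signals only, and 21 of them were called.

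Within the ceramide synthases, Cers2 fell further than Cers5, with a difference between log2 changes of -1.97 ± 0.05 (SE, n = 4 arrays per group, exact adjusted p = 0.0314). Cers2 also fell further than Cers6, with a difference between changes of -1.55 ± 0.13. Under quantile normalization and cyclic loess the difference was -1.92 in both cases for the pair with Cers5, and -1.82 and -1.73 for the pair with Cers6. Cers5 and Cers6 differed by 0.42 ± 0.16 as deposited, and by 0.10 and 0.19 with overlapping groups under quantile normalization and cyclic loess.

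Among the sphingomyelinases, Smpd1 fell further than Smpd2 changed, with a difference of -2.17 ± 0.05 (exact adjusted p = 0.0314), and -2.51 and -2.37 under quantile normalization and cyclic loess. Smpd2 minus Smpd3 was -0.44 as deposited, with overlapping groups. It was 0.82 and 1.09, with groups apart, under quantile normalization and cyclic loess. Smpd1 minus Smpd3 was -2.61 as deposited, and -1.69 and -1.28 under these scalings. Smpd3 was under background on all arrays. Sgms1, which opposes the sphingomyelinases, differed from Smpd1 by 0.69 ± 0.14 and from Smpd2 by -1.47 ± 0.12. The changes of Smpd1 and Cers2 were not told apart, at -0.12 ± 0.07 for Cers2 minus Smpd1 (exact p = 0.2, adjusted 0.205). The same held for Sptlc1 minus Smpd1, at 0.06 ± 0.11 (exact p = 0.629). In measured signal, the change of Asah1 differed from that of each of the other 9 genes. Sptlc1, Asah2 and Smpd3 were under background in exosomes, so their differences from Asah1 hold only for the signals. Where both groups exceeded background at the 95th percentile, the gap ran from 2.03 for Cers2 to 4.31 for Smpd2. The difference between Asah1 and Asah2 was -2.39 ± 0.16 in measured signal, but the fall of Asah2 is a bound, so it is not known whether their changes differed by that much. Asah2 and Sgms1 are neighbours on chromosome 19 in RefSeq, and their changes differed by 0.45 ± 0.11, again with Asah2 under background in exosomes.

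**Figure D4:**
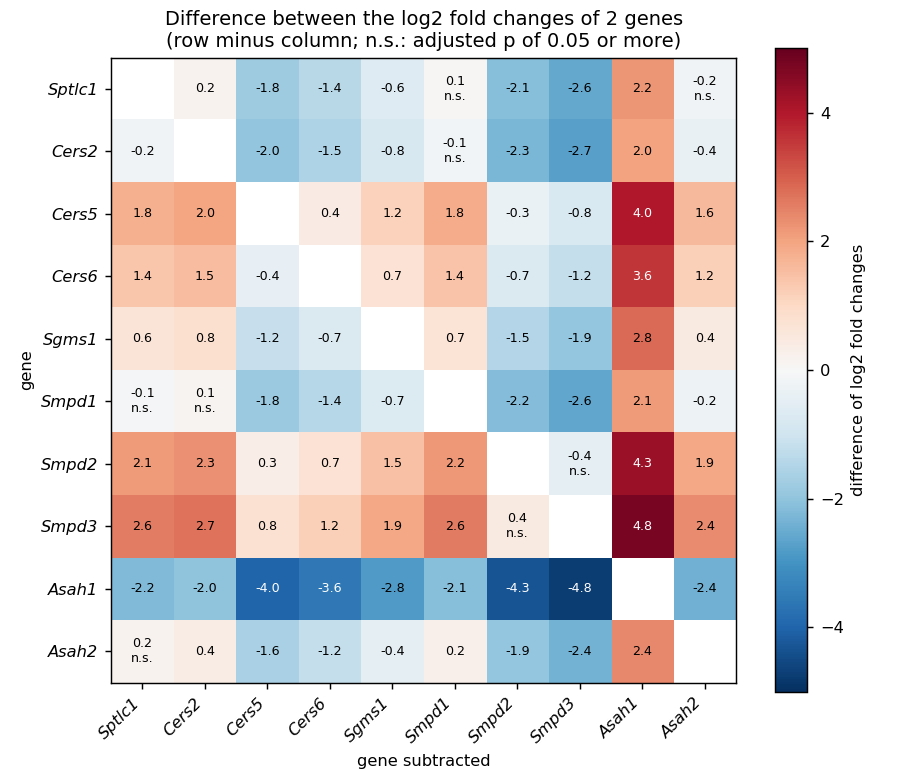
Each cell gives the log2 fold change of the row gene minus that of the column gene, exosomes against cells, as a number and a colour. The 4 pairs marked n.s. are Sptlc1 with Smpd1 and with Asah2, Cers2 with Smpd1, and Smpd2 with Smpd3, and the row of Asah1 is negative throughout.

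The rest of the pathway was taken from 7 lists of 59 measured genes, which hold none of the 10. Of these, 37 were called lower and 8 higher as deposited, beside 52.1% and 14.6% of all genes, with a median log2 fold change of -0.81 beside -0.39. The numbers were 27 lower and 22 higher under quantile normalization, 27 and 21 under cyclic loess, and 50 and 3 when arrays were centred on background genes, so the balance of calls depended on the scaling. Of the 59 genes, 43 had groups that did not overlap, beside 65.7% of all genes. Background was exceeded in cells by 45 of the 59, beside 61.7% of all genes. Among all genes that exceeded it in cells, 79.9% were called lower and 7.29% higher as deposited. Their median log2 fold change was -1.30, and 87.4% did not overlap.

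Among 11 other genes of ceramide synthesis, 7 fell and 1 was called higher (median -2.13), beside 52.1% and 14.6% of all genes and, as 8 of the 11 exceeded background in cells, 79.9% and 7.29% of genes that did. Under quantile normalization and under cyclic loess, 7 were called lower and 2 higher. The shares of all genes were then 33.4% and 30.1%, and 32.8% and 31%. Degs1, the desaturase that finishes ceramide, had 10.72, 10.67, 10.83 and 10.72 in cells and 6.41, 6.83, 6.76 and 6.96 in exosomes. It fell 15.9-fold (log2 fold change -4.00 ± 0.12 SE, limma adjusted p = 4.03e-08), with 3 of 4 exosome arrays above background. Cers4, a further ceramide synthase, fell 6.57-fold, and Ormdl1, which restrains serine palmitoyltransferase, 5.61-fold. The 1 gene called higher was Sptlc3, an alternative subunit of serine palmitoyltransferase, which was under background on all arrays and whose sign turned to -0.10 after centring. Of 5 relatives of the sphingomyelin enzymes, 4 were called lower (median -1.26). The share was 79.9% among genes detected in cells, as 4 of the 5 were. Sgms2, among those called lower at -0.36, was under background on all arrays, and Samd8 was detected in cells but not called (0.02). The other falls, as deposited, were those of the phosphodiesterase Smpdl3a, at least 9.93-fold lower, Smpd4, 5.29-fold lower, and Smpdl3b, at least 1.41-fold lower.

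Of 5 further ceramidases and ceramide kinase, 2 rose and 2 fell, beside 14.6% of all genes called higher and 52.1% called lower. Among genes above background in cells, as 4 of these 5 were, the shares were 7.29% and 79.9%. Acer2, the Golgi ceramidase that works at alkaline pH, had 8.28, 8.06, 8.08 and 8.18 in cells and 9.54, 9.35, 9.66 and 9.62 in exosomes, all higher. It rose 2.62-fold (log2 fold change 1.39 ± 0.09 SE, limma adjusted p = 1.85e-06). Cerk, the kinase that makes ceramide 1-phosphate, had 9.98, 9.90, 9.88 and 9.81 in cells and 10.98, 11.05, 11.03 and 11.09 in exosomes. It rose 2.21-fold (1.15 ± 0.07, adjusted p = 7.96e-07). Another rise, from the list of transfer proteins, was that of Plekha8, which carries glucosylceramide through the Golgi, with 8.64, 8.55, 8.64 and 8.70 in cells and 10.53, 10.55, 10.63 and 10.64 in exosomes. Plekha8 rose 3.88-fold (1.95 ± 0.07, adjusted p = 5.9e-08). Acer2, Cerk and Plekha8 were the 3 of 59 genes that rose at least 2-fold, beside 2.58% of all genes, and they were called higher under each scaling, with Cerk lowest at 0.55 after centring.

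Other genes of that list were lower or not called. Acer3, an alkaline ceramidase of the endoplasmic reticulum and Golgi, was at least 1.93-fold lower as deposited and under background in exosomes. Naaa, a lysosomal amidase related to acid ceramidase, was at least 2.73-fold lower as deposited. Acer1 did not pass the test (0.09, adjusted p = 0.579) and was under background on all arrays. Of the ceramidase genes above background in cells, Acer2 thus rose, and Asah1, Asah2 and Acer3 fell.

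Of 11 genes of sphingosine 1-phosphate metabolism and signalling, 5 were called lower and 2 higher as deposited, beside 52.1% and 14.6% of all genes. Under quantile normalization and under cyclic loess, 1 was called lower and 8 higher. The shares of all genes were then 33.4% and 30.1%, and 32.8% and 31%. Sgpl1, the lyase that breaks sphingosine 1-phosphate down, fell 5.68-fold (-2.51 ± 0.11). Sphk2, a sphingosine kinase, fell 2.27-fold as deposited and turned to 0.21 and 0.28 under quantile normalization and cyclic loess. The genes called higher, the transporter gene Spns2 and the receptor gene S1pr4, were under background on all arrays, and the call of S1pr4 was lost without cell replicate 1, 2 or 3 or exosome replicate 2 or 4 (limma adjusted p up to 0.0654).

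For glycosphingolipids, 9 of 10 genes of lysosomal breakdown fell (median -2.16), beside 79.9% of genes above background in cells, as all 10 were. Under quantile normalization 9 were called lower and 0 higher, and under cyclic loess 9 and 1, beside 49.5% and 46.5% of those genes called lower. As deposited, Gla, the alpha-galactosidase, was at least 7.11-fold lower, and the beta-galactosidase Glb1 fell 8.59-fold. Arsa, which removes sulphate from sulphatide, had a log2 fold change of -3.33 ± 0.09. Acid sphingomyelinase and acid ceramidase act in the same compartment, and Smpd1 and Asah1 were called lower, as were 79.9% of genes above background in cells. Whether the compartment bears on these falls was not tested. Of 11 genes of glycosphingolipid synthesis, 6 were called lower and 2 higher as deposited (median -0.32), against 2 and 6 under quantile normalization and 2 and 4 under cyclic loess. The shares of all genes were 52.1% and 14.6% as deposited, 33.4% and 30.1% with quantile normalization, and 32.8% and 31% with cyclic loess. Of the genes called lower as deposited, Ugt8a, B4galnt1 and B3galt4 were above background on no exosome array. Their cell means of 6.12, 6.00 and 5.61 lay under the mean exosome threshold of 6.49, so no bound on a fall is given. B3galt4 exceeded background on only 2 of 4 cell arrays. Ugcg, which starts the pathway by adding glucose to ceramide, fell 3.14-fold as deposited and was not called under quantile normalization or cyclic loess. The genes called higher were A4galt, under background on all arrays and not called without cell replicate 3 or exosome replicate 1 or under cyclic loess, and the sialyltransferase St3gal2. St3gal2 was 1.19-fold higher (limma adjusted p = 0.0186), lost its call without cell replicate 4 (0.0545), and was called lower after centring. Of 6 genes for lipid transfer, all above background in cells, 4 were called lower and 1 higher as deposited (median -0.89), beside 79.9% and 7.29% of genes detected in cells. Under quantile normalization and under cyclic loess 2 were called lower and 3 higher, with medians of 0.08 and 0.26. The genes called lower as deposited included Vapa, a membrane anchor of lipid carriers, 4.86-fold lower, Cptp, a carrier of ceramide 1-phosphate, 2.94-fold lower, and Cert1, the ceramide carrier from endoplasmic reticulum to Golgi, at least 1.98-fold lower. The fall of Cptp was not called under quantile normalization or cyclic loess. The log2 fold change of Cert1 was -0.29 and -0.22 under these scalings, still called lower, so its bound holds only as deposited.

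**Figure D5:**
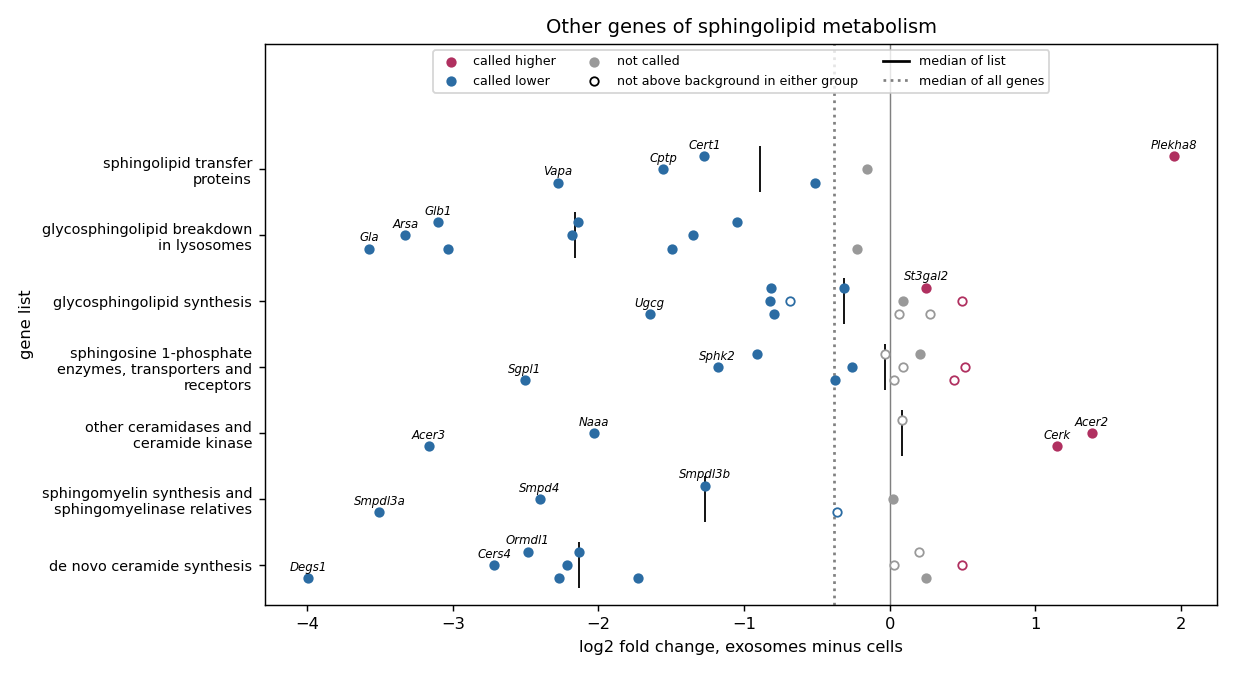
Each point is 1 of 59 further sphingolipid genes at its log2 fold change, exosomes minus cells as deposited, in 7 rows by list, with a black line at each list median and a dotted line at -0.39, the median of all genes. Plekha8, Acer2 and Cerk are the 3 filled red points beyond 1, and Degs1 at -4.00 is the farthest to the left; the split of red and blue points near 0 changed with the scaling of the arrays.

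In both kinds of sample the RNA was bulk. Fewer vesicles that carry a transcript and less of it per vesicle cannot be told apart, and neither can whole transcripts and fragments of them. Whether the compressed range of the exosome arrays took part in the smaller or larger falls was not tested beyond the scalings given.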

How the data were processed

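Log2 gene signals from Affymetrix mouse exon arrays were analysed for 4 samples of B16F0 cells and 4 of B16F0 exosomes. The deposited values are log2 signals that the authors made with Affymetrix Expression Console and RMA on genome build mm8, per the submitters' processing notes, averaging a gene's core probesets per the series text. Their versions were not given in sources used here. Of 23332 transcript clusters, 14996 had 1 gene symbol in the platform table, 1019 several and 7317 none here. Symbols were updated by gene identifier through RefSeq (14941 matched), and the cluster with the highest mean stood for each of 14860 genes.

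Groups were compared with limma 3.58.1 (R 4.3.3; lmFit, eBayes) over all clusters, two-sided, with Benjamini-Hochberg adjustment and calls below 0.05. Bounds set the exosome level at its array's background threshold and apply to the deposited scaling only. Pairs used exact permutation. The same replicate numbers had correlations from -0.05 to 0.00 between deviations of the groups, so no pairing was used. The fit was tested on simulated data. Alternatives were other scalings, filters, priors, weights, a replicate block, thresholds, and leaving out each array.

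The 10 genes, the lists, and the rule for naming genes (every gene of the 7 lists called higher, and in each list the 3 largest falls of at least 2-fold above background in cells) were chosen with earlier results of these data known. Figures were drawn with matplotlib 3.10.9. Marker lists were checked for both groups: 3 of 7 fibroblast, 1 of 6 endothelial, 1 of 5 epithelial and 1 of 3 red cell or platelet markers were above background in cells, and 2, 0, 0 and 0 in exosomes.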

Additional observations from a re-analysis of the deposited data

Results flagged for a closer look

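Among 70 groups of 4 arrays, for the 10 genes and the 25 other genes chosen by rule, 3 held a sample far from the other 3 by Dixon's ratio at a limit of 0.829. About 1 in 20 groups would be picked out by chance, or 3.5 of 70. Smpd2 was at 8.95 in cell replicate 3, beside 8.86 as the next value. Smpdl3a was at 6.44 in exosome replicate 3, beside 6.25, and all of these values were under background. St3gal2 was at 8.58 in cell replicate 4, beside 8.72, and without that sample its call was lost (limma adjusted p = 0.0545).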

How the results depend on the processing

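Over the alternatives run, the falls of Asah1, Asah2, Cers2, Sgms1, Smpd1 and Sptlc1 kept their direction and call. Under quantile normalization 2 of the 10 genes were called higher, with Cers5 at 0.35, Cers6 at 0.26 and Smpd2 at 1.09, 22 of the 59 further genes were called higher and Sphk2 was 0.21; over all clusters 6627 were higher and 6582 lower, against 3818 and 10008 as deposited. Under cyclic loess 3 of the 10 were called higher, with Cers5 at 0.66, Cers6 at 0.47 and Smpd2 at 1.25, 21 of the 59 were higher, Sphk2 was 0.28, and 6799 clusters were higher and 6490 lower. Calls were thus 27.6% higher as deposited, 50.2% under quantile normalization, 51.2% under cyclic loess, and 5.98% with arrays centred on background genes. With that centring 1060 clusters were higher and 16672 lower, 3 of the 59 were higher, and Smpd3 was -0.34, Sptlc3 -0.10, Spns2 -0.15, S1pr4 -0.075, A4galt -0.10 and St3gal2 -0.35. With only signals above background in a group, 4 of the 59 and 1479 clusters were higher, since fewer were tested. Leaving out each array left 8 of the 10 lower and 0 to 1 higher, Smpd3 being called without exosome replicate 4; pairs called ranged from 35 to 40. Without 1 array, S1pr4 lost its call in 5 of 8 cases, A4galt in 2 and St3gal2 in 1. With the replicate block, 8 of the 10 and 35 of the 59 were lower, and only St3gal2 of the named genes lost its call (limma adjusted p = 0.0701). The cause of these shifts was not tested.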
